A study of Mus musculus with 8 samples.

Results

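The complement genes described here are C1qa, C1qb and C1qc, which encode the A, B and C chains of C1q, C3, Cfb (factor B), Cfp (properdin), C3ar1 and C5ar1. They were measured in conventional dendritic cells of the mouse spleen. All probe sets, the short oligonucleotide groups of an array that each report on a transcript, were taken whose gene symbol in the platform's annotation was one of these 8 genes. There were 13 such probe sets for 7 of the genes, of 45037 probe sets without array controls and 18193 named genes. C3 has no probe set named in the annotation used here and was not analysed here. Cells came from untreated female C57BL/6 mice that were either wild type or RAG2-/-, 10 weeks old per the sample labels, and were sorted as CD8α+ or CD8α- dendritic cells. Each of the 4 groups had 2 arrays. Animals with the RAG2 deletion cannot rearrange antigen receptor genes and so lack mature T and B lymphocytes, while their dendritic cells, macrophages and neutrophils remain. Whether an array held 1 animal or a pool is not given in the sources used here, and neither is whether the replicates were separate mice, so the spread between them may be technical.

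Complement is a cascade of plasma proteins that marks particles and dying cells for uptake. C1q starts the classical pathway when it binds antibody complexes or apoptotic cells, and it is assembled from equal numbers of its A, B and C chains. Unlike most complement proteins, which the liver secretes, C1q is made mainly by macrophages and dendritic cells. C3 is the central component, factor B builds the alternative pathway convertase that cleaves it, and properdin stabilises that convertase. C3aR and C5aR1 are receptors for the small fragments released from C3 and C5. In the spleen, C1q is a well-known product of macrophages.

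C1qb, C1qc and C1qa are next to each other, in that order, on mouse chromosome 4. The RefSeq promoter table of GRCm38.p6 held 6 of the 8 genes, C1qb and C1qc among them. Their 250 bases before the gene start are shown because these neighbouring genes were higher in the knockout together, and that of Cfp is shown for comparison. Capitals mark GAGGAA, the core bound by PU.1 and other ETS factors, and TGCTGA, a Maf recognition core, on either strand. The C1qb window is chr4:136886201-136886450, the C1qc window chr4:136892915-136893164 and the Cfp window chrX:20931556-20931805, all on the minus strand and written 5′ to 3′.
C1qb: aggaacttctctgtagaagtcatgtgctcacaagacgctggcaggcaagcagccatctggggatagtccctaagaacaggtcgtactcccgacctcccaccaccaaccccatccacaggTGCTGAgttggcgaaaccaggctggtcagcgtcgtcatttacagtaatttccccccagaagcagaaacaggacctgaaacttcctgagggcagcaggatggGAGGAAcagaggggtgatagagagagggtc
C1qc: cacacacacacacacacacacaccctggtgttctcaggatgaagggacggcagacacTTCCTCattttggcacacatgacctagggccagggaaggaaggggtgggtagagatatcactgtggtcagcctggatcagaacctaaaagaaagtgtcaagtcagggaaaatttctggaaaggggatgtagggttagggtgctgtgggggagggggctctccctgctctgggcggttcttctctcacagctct
Cfp: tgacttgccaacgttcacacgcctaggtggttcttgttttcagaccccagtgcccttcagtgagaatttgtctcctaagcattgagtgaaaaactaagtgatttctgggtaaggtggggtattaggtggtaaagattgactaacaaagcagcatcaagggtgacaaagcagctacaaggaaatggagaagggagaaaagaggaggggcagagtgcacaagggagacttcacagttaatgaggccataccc
GAGGAA or its reverse TTCCTC occurred in 23.3% of 32851 promoter windows of this length, and TGCTGA or TCAGCA in 16.1%. The C1qb window held both motifs, GAGGAA from 30 to 25 bases and TGCTGA from 131 to 126 bases before the start. The C1qc window held TTCCTC from 193 to 188 bases before it, and that of Cfp held neither. TGCTGA or TCAGCA was also in the windows of C3, C3ar1 and C5ar1, which are not shown. C3 was not analysed here, and C3ar1 and C5ar1 were below log2 5 on all arrays. Of the 6 genes only Cfp had neither motif, so the motifs do not set the C1q genes apart. The AP-1 site TGACTCA, also searched on both strands and held by 4.46% of windows, was in none of these 3. Such matches describe the letters of these windows and are not binding sites.

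The sort showed in the transcripts of its markers. Cd8a stood at log2 5.95 and 7.30 in wild type and knockout CD8α- cells and at 11.83 and 12.41 in CD8α+ cells, and Cd4 ran the other way. Itgax, which encodes the dendritic cell integrin CD11c, was at 12.45 to 14.29 on all 8 arrays. The array-wide values set limits. Each knockout array had the same lowest value of 2.23, on 18217 to 18893 probe sets, while each wild type array had its lowest value, 1.16 or 1.17, on 1 probe set. Hence the genotypes were evidently normalized apart, and for every comparison of genotypes below this processing and the genotype cannot be told apart. Knockout CD8α- replicate 2 and knockout CD8α+ replicate 1 also carried neutrophil transcripts. The neutrophil granule gene Ngp was at 11.65 and 10.18 on these arrays and between 2.38 and 4.24 on the other 6. Levels are log2 expression values as deposited, compared only within a probe set, and probe sets that reached 5 on 2 or more of the 8 arrays were tested. Of the 13 complement probe sets 7 passed, for C1qa, C1qb, C1qc and Cfp, those of C1qa and C1qc through their knockout arrays alone.

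C1q transcripts were higher in RAG2-deficient dendritic cells of both subsets. C1qa and C1qc, below log2 5 on every wild type array, were above it on every knockout array. Of the 3 probe sets of C1qb, 1 was called higher in knockout CD8α- cells and all 3 in knockout CD8α+ cells, by sizes that differed widely between them. Counted over the 7 tested probe sets, C1q and Cfp together, 3 were called higher with the knockout in CD8α- cells, where 19.1% of all tested probe sets were, and 6 in CD8α+ cells, where 16.7% were. None was called lower, as 16.6% and 17.3% of all were. The arrays of the genotypes did not overlap, with the knockout higher, for 6 of the 7 in each subset, which held for 38.7% and 35.1% of all. These counts describe the members and support no pattern, since C1qa and C1qc passed the filter only where they were high. The median change over the 7 was 0.90 and 1.72, and 0.90 and 1.6 with values below 5 set to 5, against 0.08 and -0.02 over all 16939 probe sets. In bulk samples such as these, more cells that make a transcript and more transcript per cell cannot be told apart.

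C1qa was read by probe set 1417381_at. Its wild type values were 4.13 and 4.45 in CD8α- cells and 3.32 and 3.75 in CD8α+ cells. In the knockout they were 9.24 and 9.97 in CD8α- cells and 9.25 and 8.46 in CD8α+ cells. The genotypes were far apart on all arrays, and the knockout subsets overlapped. Below a level of 5 no wild type value can be ordered. Against 5, the mean knockout level of C1qa was at least 24.3-fold higher in the CD8α- subset. In the CD8α+ subset it was at least 14.5-fold higher. In the linear model (limma, all 8 arrays, Benjamini-Hochberg adjustment over 16939 probe sets) both differences were called (adjusted p = 0.000609 and 0.000629). The fitted log2 changes of 5.31 and 5.32 (SE 0.36 each) rest on wild type values below 5 and were 4.60 and 3.86 with these set to 5.

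C1qc was read by probe set 1449401_at. Its wild type values were 2.09 and 2.57 in CD8α- cells and 2.09 and 2.08 in CD8α+ cells. Knockout values were 7.96 and 8.32 in CD8α- cells and 7.0 and 6.08 in CD8α+ cells. All knockout arrays lay above all wild type arrays, and within the knockout the CD8α- arrays lay above the CD8α+ arrays. By its group mean against 5, C1qc was at least 8.81-fold higher in knockout CD8α- cells (limma adjusted p = 0.000446). In knockout CD8α+ cells it was at least 2.91-fold higher (limma adjusted p = 0.000785). The calls for C1qa and C1qc held in both subsets under each of 21 other settings, which included leaving out each array in turn. The fitted changes of C1qc, 5.81 and 4.45 (SE 0.34 each), likewise became 3.14 and 1.54 with values below 5 set to 5. Both C1qa and C1qc passed the filter only through their knockout arrays, and no setting undid the separate normalization of the genotypes. That the calls held therefore adds no support to a genotype effect.

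C1qb had 3 probe sets. For 1417063_at the wild type values were scattered, with 4.92 and 6.77 in CD8α- cells and 3.26 and 5.68 in CD8α+ cells. The knockout values were 8.76 and 9.46 in CD8α- cells and 8.66 and 8.12 in CD8α+ cells, above each wild type value. The log2 change was 3.27 in CD8α- cells (SE 0.88, limma adjusted p = 0.0298) and 3.92 in CD8α+ cells (SE 0.88, adjusted p = 0.0174). The CD8α- call was lost without wild type CD8α- replicate 1 (2.34, adjusted p = 0.162) or either knockout CD8α- array (adjusted p = 0.0705 and 0.117). In CD8α+ cells it was lost without wild type replicate 1 (2.71, adjusted p = 0.0793) or either knockout array (0.0836 and 0.0573). Leaving out each array moved the change from 2.34 to 4.19 in CD8α- cells and from 2.71 to 5.13 in CD8α+ cells, and the lowest and highest values came from leaving out replicates 1 and 2 of the wild type.

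The other C1qb probe sets carry the suffix x, which the manufacturer gives to probe sets with probes that may also match other transcripts. Wild type arrays read 9.44 and 9.71 (CD8α-) and 8.25 and 7.95 (CD8α+) for probe set 1437726_x_at. Knockout arrays read 10.22 and 10.72 (CD8α-) and 10.13 and 9.5 (CD8α+). It was thus bright in all groups, and its genotypes did not overlap within either subset. Its log2 change was 0.90 in CD8α- cells, which missed the threshold (95% interval 0.20 to 1.59, limma adjusted p = 0.0527) and passed it under 10 of 21 other settings, among them limma-trend (0.0407) and median centring (1.55, 0.00568), and 1.72 in CD8α+ cells (SE 0.29, adjusted p = 0.00699), a call that held under all 21 other settings.

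Probe set 1434366_x_at went the same way. Its wild type values were 8.15 and 8.60 (CD8α-) and 7.14 and 7.09 (CD8α+). Its knockout values were 8.78 and 9.27 (CD8α-) and 8.34 and 7.95 (CD8α+). Again the genotypes did not overlap within a subset. The log2 change was 0.65 in CD8α- cells (95% interval 0.02 to 1.28, limma adjusted p = 0.0973) and 1.03 in CD8α+ cells (SE 0.26, adjusted p = 0.0263). The latter call was lost without wild type CD8α+ replicate 1 (adjusted p = 0.101) or 2 (0.1) or knockout CD8α+ replicate 1 (0.117).

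The 3 C1qb probe sets therefore had the same direction and different sizes. The gap between 1417063_at and 1437726_x_at within an array was -3.68 ± 1.28 in wild type and -1.39 ± 0.09 in the knockout (SD, 4 arrays each), a change of 2.29 in the gap (exact permutation test over 70 groupings, 2-sided p = 0.0286, the smallest that 4 against 4 arrays can give, and 0.0381 adjusted over 4 such tests). The gap of 1417063_at to 1434366_x_at changed by 2.75, and that of 1434366_x_at to 1437726_x_at by -0.47, each with the same p-values. On 2 wild type arrays 1417063_at was below 5, where its gap is not measured. With these values set to 5, its gaps changed by 1.83 and 2.3 (exact permutation p = 0.0286 each). Because arrays of the genotypes were normalized apart, this shows unequal change among probe sets as deposited. Which of them is nearest to the true change of C1qb cannot be read from these values.

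**Figure D1:**
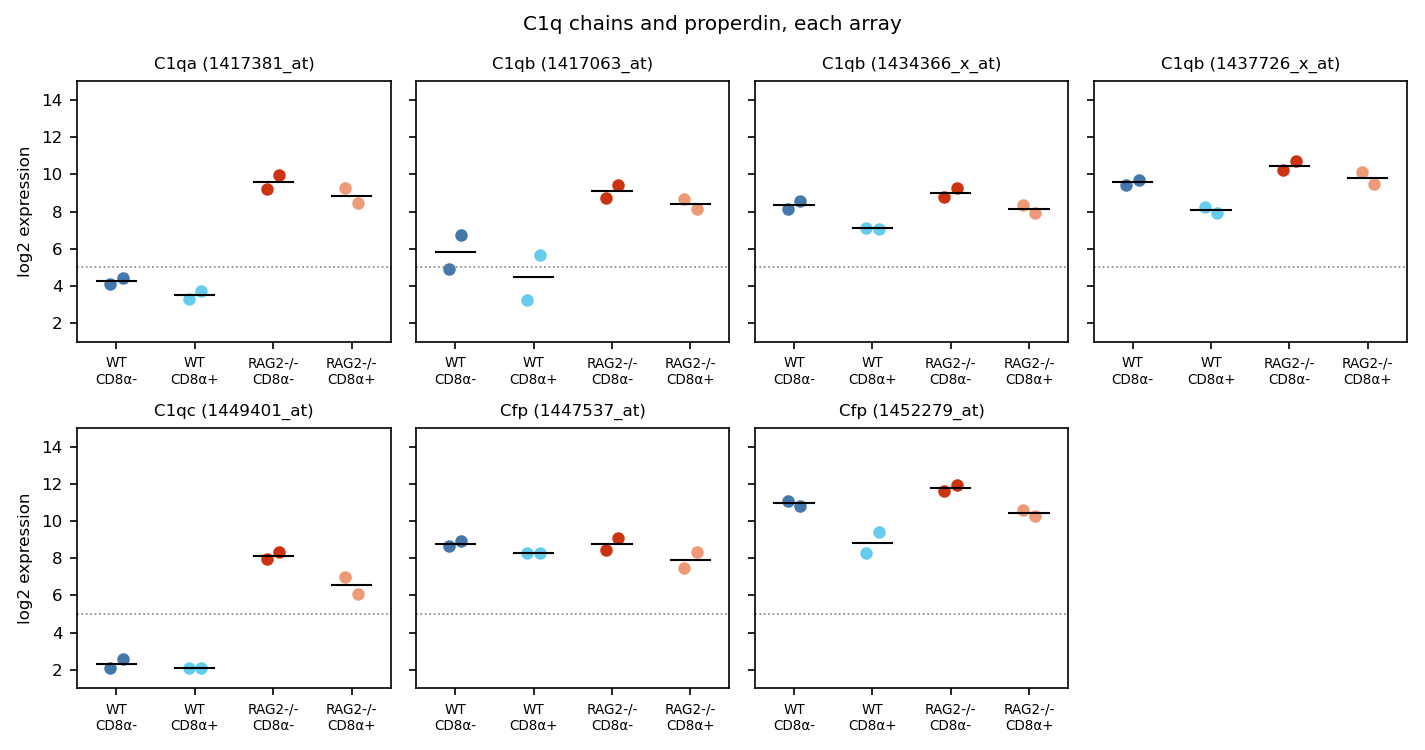
Log2 expression on each array (points) and group mean (bars) for the 7 complement probe sets that were tested, in wild type (WT) and RAG2-/- CD8α- and CD8α+ cells. The dotted line marks the level of 5 used in the filter. C1qa and C1qc lie below it on all 4 wild type arrays and above it on all 4 knockout arrays, while the x-suffixed C1qb probe sets are above 7 in every group.

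Many, but not all, of the splenic macrophage markers tested moved with C1q between the genotypes. Of 16 macrophage markers 15 had a named probe set and 10 passed the filter. The 10 were all higher in knockout CD8α- cells and 7 of 10 in knockout CD8α+ cells by limma, with none lower (8 and 4 without the 2 arrays with neutrophil transcripts), where 19.1% and 16.7% of all probe sets were called higher. Of these 10, Cd5l, Cd163, Fcgr1 and Axl were below 5 on each wild type array. Hmox1 reached 5 in wild type only on CD8α+ replicate 1 (5.56). All of these passed only through the knockout, and their part in the count supports nothing. Slc40a1, which encodes the iron exporter ferroportin, was at 9.33 to 10.24 on the wild type arrays and at 12.42 to 13.59 on the knockout arrays. Cd163, the haemoglobin scavenger receptor, was at 3.40 to 4.19 and at 6.68 to 7.99. Hmox1, which degrades haem, was at 3.85 to 5.56 and at 7.47 to 9.38. By their brightest probe sets, 5 of the 15 markers were above 5 on all 8 arrays. They were Slc40a1, Fcna, Vcam1, Spic (6.86 to 8.52) and Adgre1, which encodes F4/80 (7.01 to 12.36). Another 4, Timd4, Marco, Siglec1 and Vsig4, were below 5 on all 8. Of the 5 above it, Vcam1 went the other way in CD8α+ cells, while the rest had higher knockout means there. Vcam1 was at 11.64 and 12.36 in wild type and at 11.58 and 11.35 in knockout CD8α+ cells, a difference that was not called. The call of Spic in knockout CD8α+ cells was lost under 13 of 21 other settings. The summed linear level of the 15 markers was 4500 to 6830 over the wild type arrays. It was 22800 to 24300 in knockout CD8α- cells and 9940 to 12200 in knockout CD8α+ cells. Such a sum is carried by its brightest markers, here mainly Vcam1, Slc40a1 and, in CD8α- cells, Adgre1. It does not speak for the 15 as a set. The part of macrophage transcripts in the C1q difference was not tested.

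Neutrophil transcripts ran with C1q within the knockout, and so did some others. Gzma, on the NK cell list, was at 11.53 on the CD8α- array with neutrophil transcripts and at 9.44 on the other. In CD8α+ cells it was at 10.41 and 8.5. Axl was at 7.74 and 6.01, and at 5.67 and 3.26. Irf8 was higher there only in CD8α- cells (13.25 and 11.5), and Slc40a1 only in CD8α+ cells (12.58 and 12.42). Others on the same lists did not run with C1q. Klrd1, on the NK cell list, was lower there in both subsets (13.06 against 13.47, and 10.18 against 10.77). So was Cd163 of the macrophage list (7.83 against 7.99, and 6.68 against 6.84), and Cd5l was level (6.99 and 6.99, and 6.25 and 6.26). These differences share the same 2 arrays, so that C1q cannot be tied to any of them. Each of the 5 C1q probe sets, which share the same arrays and are not replicates, read higher on the array with neutrophil transcripts than on the other array of its group, in both subsets. The same was so for 50.1% of all tested probe sets in CD8α- cells and 39.7% in CD8α+ cells, while Cfp 1447537_at went the other way in CD8α+ cells (7.46 against 8.34). On the knockout arrays without these transcripts C1qa was at 9.24 (CD8α-) and 8.46 (CD8α+) and C1qc at 7.96 and 6.08, above 5 in each case. Fitted without the 2 arrays, the genotype calls held for C1qa (limma adjusted p = 0.0125 and 0.0144) and C1qc (0.0107 and 0.0144). The calls of C1qb 1417063_at (adjusted p = 0.168 and 0.118) and, in CD8α+ cells, of 1434366_x_at (0.0842) were lost there, as was that of Cfp (1.42, 0.118), while C1qb 1437726_x_at in CD8α+ cells kept its call (1.40, 0.0302).

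**Figure D2:**
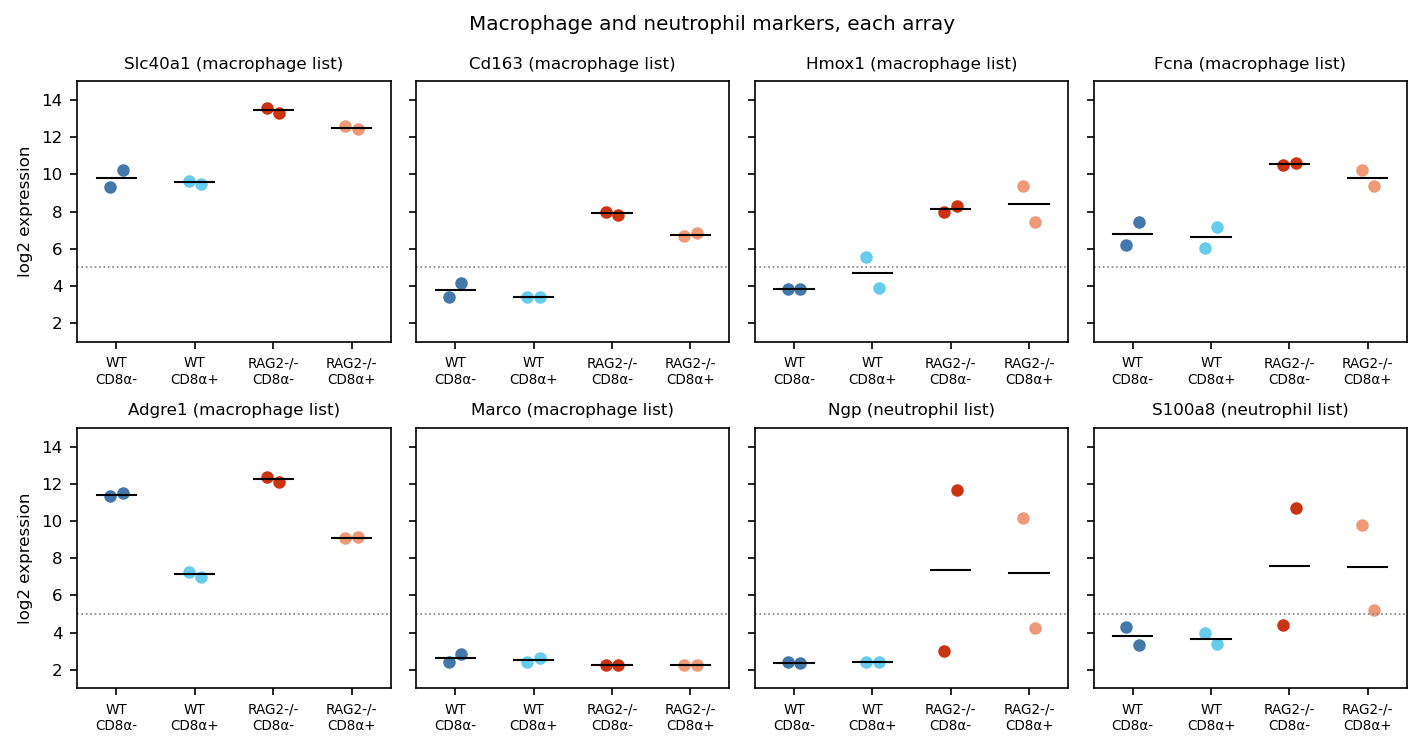
Log2 expression on each array (points) and group mean (bars) for 6 macrophage-list and 2 neutrophil-list panels, in the same 4 groups, with the dotted line at 5. Slc40a1, Cd163, Hmox1 and Fcna are higher on each knockout array than on any wild type array, Marco is below 5 throughout, and Ngp and S100a8 are high on 1 array of each knockout group.

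Between the sorted subsets, C1qb and properdin had lower mean levels in CD8α+ than in CD8α- cells in both genotypes, on each of their probe sets, and C1qa and C1qc in the knockout. In wild type C1qa and C1qc were below 5 in both subsets, so that no difference could be read. Of the 7 tested probe sets, 3 were called lower in wild type, where 5.74% of all tested probe sets were, and 1 in the knockout, where 8.47% were. None was called higher, as 6.98% and 7.69% of all were. The CD8α+ arrays lay below the CD8α- arrays without overlap for 5 of the 7 in wild type, against 26.6% of all, and for 6 of the 7 in the knockout, against 27.2%. One of the 5 is C1qa, whose wild type values have no order. The median change was -1.26 and -0.87, or -0.54 and -0.87 with values below 5 set to 5, against 0.02 and -0.01 over all. In wild type, 1437726_x_at of C1qb changed by -1.47 (SE 0.29, limma adjusted p = 0.0208) and 1434366_x_at by -1.26 (SE 0.26, adjusted p = 0.0256). Both calls were lost when any of the 4 wild type arrays was left out, at adjusted p values of 0.0675 to 0.148. C1qb 1417063_at was at -1.37 with a 95% interval of -3.49 to 0.74, and at -0.54 with values below 5 set to 5. In the knockout, C1qc fell by 1.6 on the log2 scale in CD8α+ cells (SE 0.34, limma adjusted p = 0.0239), a call that was lost when any of 5 arrays was left out (both knockout CD8α- arrays, knockout CD8α+ replicate 2 and both wild type CD8α+ arrays, adjusted p 0.0539 to 0.0828). C1qa was at -0.75 (95% interval -1.62 to 0.13), and the C1qb probe sets were at -0.65, -0.72 and -0.88, none of them called.

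Some macrophage and monocyte markers were lower in CD8α+ than in CD8α- cells. In the knockout limma called 3 of 10 macrophage and 3 of 6 monocyte markers lower, and in wild type 1 of 10, Adgre1, and 1 of 6, with none higher. Of all tested probe sets 8.47% were called lower in the knockout and 5.74% in wild type, and 7.69% and 6.98% higher. The 3 macrophage markers called in the knockout were Adgre1, Cd163 and Fcgr1. Fcgr1 reached 5 only on the knockout CD8α- arrays, so it passed the filter only where it was high and its call supports nothing. The summed macrophage level in the knockout was lower in CD8α+ than in CD8α- cells, with no overlap, as given above. In wild type it was 5010 to 6830 in CD8α- and 4500 to 6450 in CD8α+ cells, which overlapped. Of the 5 macrophage markers above 5 on all arrays, Vcam1 and Spic had higher means in wild type CD8α+ cells. They were at 12 against 10.89 and at 7.32 against 6.98, while Adgre1, Slc40a1 and Fcna were lower. The summed level of 8 monocyte markers was 6400 to 7790 (CD8α-) and 3730 to 4060 (CD8α+) on the wild type arrays. On the knockout arrays it was 34300 to 39400 (CD8α-) and 11700 to 15100 (CD8α+). This sum rested mainly on Csf1r and Lyz2, and in knockout CD8α- cells mainly on Csf1r. By limma 6 of the 6 monocyte markers that passed the filter were called higher in knockout CD8α- cells and 3 of 6 in knockout CD8α+ cells. Of all tested probe sets 19.1% and 16.7% were. The part of these transcripts in the subset difference of C1q was not tested.

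Properdin, the alternative pathway's positive regulator, is secreted by leukocytes and had 2 probe sets. The brighter, 1452279_at, read 11.09 and 10.81 (CD8α-) and 8.28 and 9.38 (CD8α+) in wild type. In the knockout it read 11.62 and 11.94 (CD8α-) and 10.61 and 10.25 (CD8α+). The order of the groups was thus knockout CD8α-, wild type CD8α-, knockout CD8α+ and wild type CD8α+, and none of these neighbours overlapped. In wild type CD8α+ cells Cfp changed by -2.12 (SE 0.37, limma adjusted p = 0.0133), a 4.34-fold lower level. In knockout CD8α+ cells it changed by -1.35 (SE 0.37, limma adjusted p = 0.0538), which missed the threshold. The knockout difference passed the threshold under 8 of 21 other settings, among them without either wild type CD8α+ array. The wild type call was lost under 5 of 21 other settings. These were no filter (limma adjusted p = 0.0951), the compared groups alone (0.0565), and leaving out either wild type CD8α- array (-1.98 and -2.26) or the 2 arrays with neutrophil transcripts. The level in knockout CD8α+ cells was 1.6 above wild type (SE 0.37, adjusted p = 0.0193), lost without wild type CD8α+ replicate 1 (1.05, adjusted p = 0.0644) or either knockout CD8α+ array (0.0914 and 0.0516). In CD8α- cells the genotype difference was 0.83 (95% interval -0.06 to 1.72, adjusted p = 0.126), which passed only without either wild type CD8α+ array (0.0467) or with median centring (1.49, 0.0142).

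The dimmer Cfp probe set, 1447537_at, showed none of these differences at the threshold. Its wild type values were 8.63 and 8.91 (CD8α-) and 8.29 and 8.30 (CD8α+). Its knockout values were 8.45 and 9.08 (CD8α-) and 7.46 and 8.34 (CD8α+). The knockout arrays spanned the wild type values. Its subset differences were -0.48 (95% interval -1.30 to 0.34) in wild type and -0.87 (-1.69 to -0.05, limma adjusted p = 0.142) in the knockout, and its genotype differences were -0.01 in CD8α- cells and -0.39 in CD8α+ cells. The Cfp probe sets had the same sign in both subset differences, while no sign could be read for the genotype differences of 1447537_at, which were 0.65 and 0.28 with median centring. The within-array gap between them changed by -1.41 with genotype (exact permutation test, 2-sided p = 0.0571, also after adjustment over the 4 such tests).

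**Figure D3:**
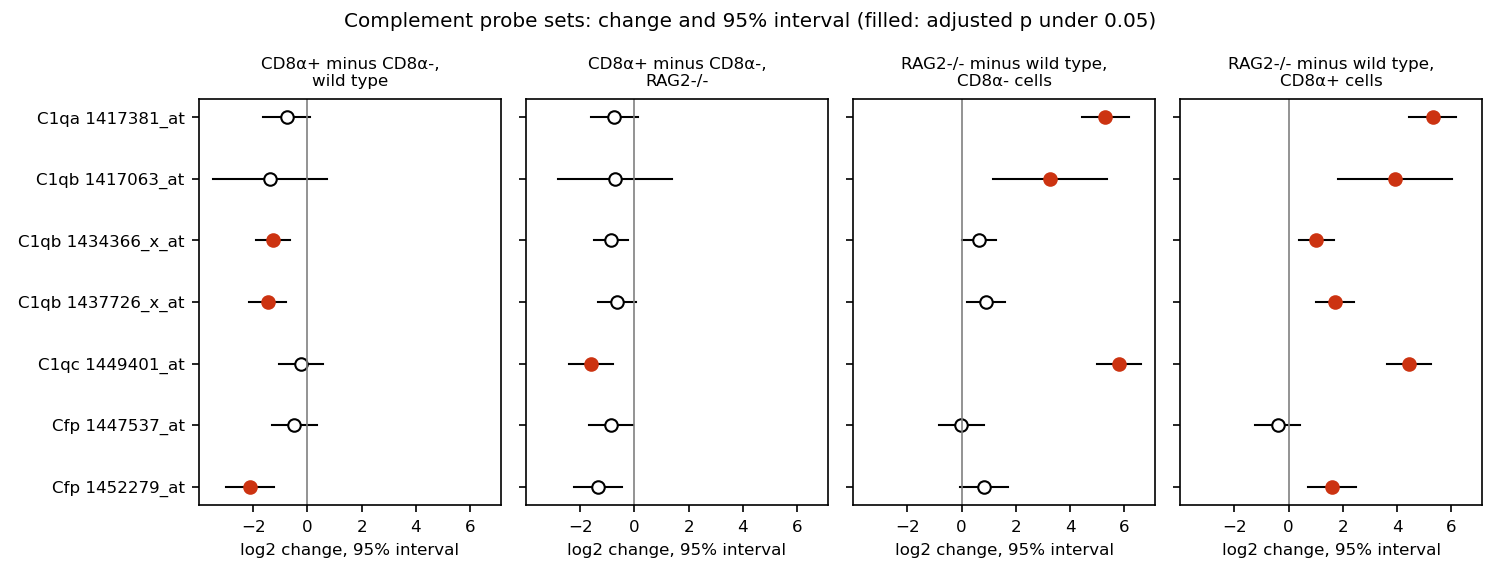
Log2 change with 95% interval for the 7 tested complement probe sets in 4 comparisons. Filled points have an adjusted p under 0.05 (limma, over 16939 probe sets). C1qa and C1qc stand at 4.45 to 5.81 in the genotype comparisons, and the wild type values behind these points are below 5. In the wild type subset comparison the points of C1qa and C1qc are differences between values below 5 and cannot be read.

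The knockout change was not shown to differ between the subsets for any of these probe sets. The interaction, taken as the knockout effect of the CD8α+ subset minus that of the other, is free of any offset that a genotype's arrays have in common. It was called for 0 of the 7 by limma and by each of 20 other settings, and 1 of them, C1qc, had an unadjusted p under 0.05. Only 0.0295% of all probe sets were called. For C1qa and C1qc the wild type part of the interaction lies below 5 and was not measured, so no size is given. C1qb 1437726_x_at was at 0.82 (95% interval -0.16 to 1.81) and Cfp 1452279_at at 0.77 (-0.49 to 2.02). These intervals are wide enough to hold differences of more than 2-fold.

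Factor B and the anaphylatoxin receptors were not detected above the level of 5. The 6 probe sets of Cfb, C3ar1 and C5ar1 were between 1.87 and 3.78 on all 8 arrays, so their subset and genotype differences could not be measured. The single Cfb probe set, 1417314_at, read 3.76 to 3.78 in wild type and 3.05 on each knockout array. C3ar1 had 3 probe sets at 1.87 to 3.10 in wild type, and C5ar1 had 2 at 2.27 to 2.69. All 5 receptor probe sets lay between 2.23 and 2.27 in the knockout, at or just above the lowest value of those arrays. Fitted without the filter, all 6 probe sets would be called between the genotypes in both subsets, and the C3ar1 probe sets would then disagree in sign (0.36, 0.32 and -0.81 in CD8α- cells). The same holds for 77.2% of the 27420 probe sets that were below 5 on all arrays, against 0.339% between the wild type subsets, and such calls are not used.

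Other genes of the pathway were taken from a list of 47, of which 38 had a named probe set and 8 passed the filter, each by its brightest probe set. Of the 30 that did not pass, 28 were below 5 on every array. By role, 1 of 12 initiators and proteases passed, 0 of 6 substrates and terminal components, 3 of 12 regulators and 4 of 8 receptors. The other 2 reached 5 on 1 array each and are named for that after their values were seen. They were Cr2, the B cell complement receptor gene (5.01 in wild type CD8α- replicate 1), and Cd93, a receptor gene of myeloid and endothelial cells (5.63 in knockout CD8α- replicate 2).

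Of the 8 that passed, 5 were called higher in knockout CD8α- cells, where 19.1% of all tested probe sets were. In knockout CD8α+ cells 2 were, where 16.7% of all were. None was called lower, as 16.6% and 17.3% of all were. Fcna, a ficolin of the lectin pathway that is also on the macrophage list, rose by 3.78 in CD8α- cells (SE 0.53, limma adjusted p = 0.00378) and by 3.20 in CD8α+ cells (0.53, 0.00668). Its values were 6.06 to 7.42 on the wild type arrays and 9.40 to 10.64 on the knockout arrays. The CD8α+ call of Fcna was lost in 1 of 21 other settings, without the 2 arrays with neutrophil transcripts (2.78, adjusted p = 0.0657). C1qbp, a mainly mitochondrial protein also known to bind C1q, rose by 1.38 and 1.33 (SE 0.19 each, adjusted p = 0.00339 and 0.00393). The calls of C1qbp held under all 21 other settings.

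Cr1l, which encodes the complement inhibitor Crry, was at 10.02 ± 0.10 in wild type and 10.78 ± 0.37 in knockout CD8α- cells (SD, n = 2 arrays each). Its change of 0.76 (limma adjusted p = 0.0463) missed the threshold under 12 of 21 other settings, among them quantile normalization (0.52, 0.114), the replicate block (adjusted p = 0.072) and leaving out any array but knockout CD8α- replicate 2 (0.0527 to 0.182). Itgax, also the α chain of complement receptor 4, rose by 1.04 in knockout CD8α- cells (SE 0.18, adjusted p = 0.00744), and its partner Itgb2 was at 0.65 (adjusted p = 0.0538). Lrp1, an endocytic receptor that also binds C1q with calreticulin, rose by 1.86 in knockout CD8α- cells (SE 0.52, adjusted p = 0.0324), a call lost under 7 of 20 other settings, among them leaving out any wild type array or knockout CD8α- replicate 2 (adjusted p 0.0618 to 0.164). In knockout CD8α+ against CD8α- cells, the mean level of Lrp1 was at least 4.57-fold lower (limma adjusted p = 0.00399). That call was lost with the compared groups alone (adjusted p = 0.0706). Itgax changed by -1.09 there (SE 0.18, limma adjusted p = 0.0102). Its call was lost with the compared groups alone (0.0742) and without knockout CD8α+ replicate 2 (-1.02) or the 2 arrays with neutrophil transcripts (-1.02). None of the 8 was called between the wild type subsets at an adjusted p under 0.05. Of all tested probe sets, 6.98% were called higher there and 5.74% lower. The 3 genes called in no comparison, named for that after their values were seen, were Itgb2, Clu, an inhibitor of the terminal complex, and Calr, the calreticulin gene. Under other settings Itgb2 was called higher in the knockout in 9 of 21 (CD8α-) and 5 of 21 (CD8α+), and Clu lower in 5 of 19 and 2 of 19, while Calr was called under none.

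**Figure D4:**
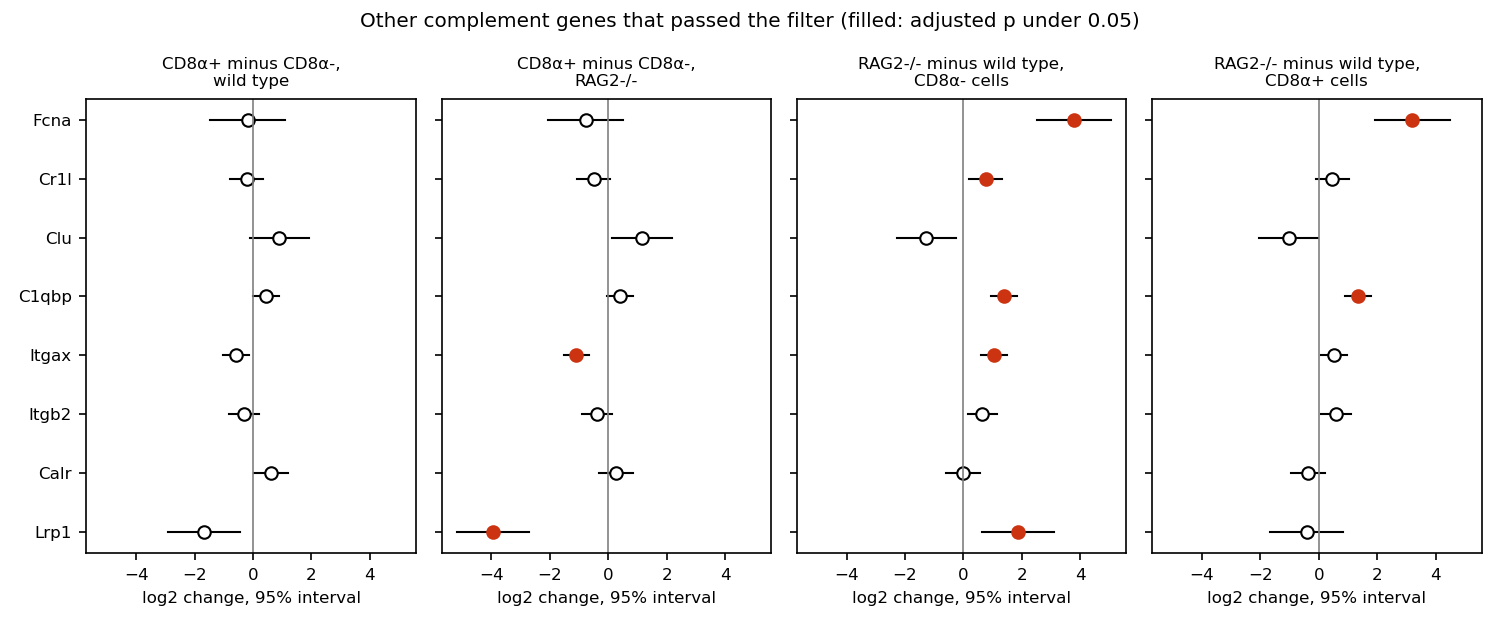
Log2 change with 95% interval for the 8 other complement genes that passed the filter, by brightest probe set, in 4 comparisons, with filled points at an adjusted p under 0.05 (limma). Fcna has the largest genotype changes shown (3.78 and 3.20), and Lrp1 the largest subset change in the knockout.

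The genes whose levels ran most like those of the members were taken as the 5 with the highest Pearson r over the 8 arrays, among named non-member probe sets with a range of at least 1. These values describe 8 arrays that fall apart by genotype and carry no test. For C1qc they were Slc40a1 (r = 0.995, by another probe set), Tnrc6a (0.994), Stard5 (0.993), Apoe (0.993) and Stard3 (0.993). Apoe, the lipoprotein gene that macrophages express strongly, had group means of 9.14 and 9.32 in wild type and 12.77 and 12.16 in knockout CD8α- and CD8α+ cells. For C1qa they were 1600014C10Rik (0.996), Ap5s1 (0.995), Armcx2 (0.994), AI837181 (0.994) and Stard3 (0.994). For the brightest C1qb probe set they were Rsad2 (0.982), Myadm (0.981), Hhex (0.978), B9d2 (0.976) and Pilrb1 (0.975), and for Cfp they were Ifnar2 (0.985), Arhgap45 (0.982), Ryr1 (0.981), Tbc1d10c (0.977) and Nfam1 (0.974). Stard3 was shared by C1qa and C1qc, and no gene of these lists was shared with C1qb or Cfp. For Cfp the group means of Nfam1, a myeloid signalling receptor gene, were 7.58 and 5.16 in wild type and 8.55 and 6.91 in knockout CD8α- and CD8α+ cells, the same order as Cfp.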

How the data were processed

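Total RNA was labelled with biotin and hybridised to Affymetrix mouse arrays, per the labels' protocols. Each deposited value is the authors' normalized log2 expression of a probe set. For wild type arrays GCRMA and affy are named in the submitters' processing notes, for knockout arrays only GCRMA. Software versions, and the sets of arrays normalized jointly, are not given in the sources used. Scanner files were not used, and the number of arrays limits the precision. The platform annotation gave 1 gene name to 34945 probe sets, several to 932 and none to 9160, and 64 array controls were left out.

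No value was rescaled. With limma 3.58.1 (R 4.3.3) a linear model with 1 mean per group was fitted to the 16939 probe sets at log2 5 or more on at least 2 arrays (4 residual degrees of freedom), with 2-sided p-values and the Benjamini-Hochberg adjustment over all of these. A call is an adjusted p under 0.05. The fit was tested on simulated data. Where a group was below 5 on each array, a fold is a lower bound for the group means. It is computed from the other group's mean against 5. Text names the member probe sets, other complement genes called in any comparison, the 5 genes most like each member by its brightest probe set, and marker genes. The members, gene lists and settings were chosen with earlier results of these data known. Other settings were quantile normalization, centring on the median, no filter or a filter at 7, an offset of 16, 1 row per gene, limma-trend, the compared groups alone, the replicate block, a lowest value of 5 and leaving out each array. Leaving out the 2 arrays with neutrophil transcripts, exchanged replicate numbers, and probe set gaps with values below 5 set to 5, were added after seeing the data. When 1 array of a group was left out, the other was assumed to vary like the other groups. Promoters came from RefSeq (GRCm38.p6). Figures were drawn with matplotlib 3.10.9.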

Additional observations from a re-analysis of the deposited data

How the results depend on the processing

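The number of member genes with a called probe set was 2 of 4 between the wild type subsets, 1 between the knockout subsets, 3 and 4 for the knockout in CD8α- and CD8α+ cells, and 0 for the interaction. Without the filter on low values these were 0, 0, 6, 7 and 0. Between the wild type subsets the count was 1 with probe sets averaged per gene, with the compared groups alone or without the 2 arrays with neutrophil transcripts, and 0 to 2 when each array was left out. Between the knockout subsets it was 2 with a filter at log2 7, an offset of 16, the brightest or the mean probe set per gene, or limma-trend, 0 with the compared groups alone, and 0 to 1 when each array was left out. Leaving out each array gave 2 to 4 and 3 to 4 for the genotype comparisons and 0 for the interaction. Replicate differences correlated between groups at r = -0.259 to 0.145, so that the numbers gave no pairing, and with the replicate block the member counts were 2, 1, 3, 4 and 0. With numbers exchanged in knockout CD8α+ cells, the block gave 3 between the knockout subsets.

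Over all probe sets, 2154, 2737, 6045, 5749 and 5 were called in the 5 comparisons, and 1199, 1487, 28294, 28132 and 41 without the filter. With 1 row per gene by the mean these were 1366, 1792, 2778, 2740 and 16, and by the brightest probe set 3544 and 3226 for the genotype and 21 for the interaction. The compared groups alone gave 720 between the knockout subsets. The interaction count was 12 with quantile normalization, 13 with the offset, 21 with a lowest value of 5, 10 without the 2 arrays with neutrophil transcripts, and 1 with either block. Leaving out each array gave 861 to 2139, 1494 to 2679, 2564 to 5867, 2649 to 6046 and 0 to 4. Centring on the array median, which moved the median genotype change to 0.77 and 0.68, made 89.1% and 88.5% of the genotype calls higher, and without the filter 34.5% and 32.9% were, where as deposited 3229 of 6045 and 2827 of 5749 were. Of 698 values of member probe sets under other settings 633 kept their side of the threshold, 42 lost a call, 23 gained one and 0 reversed a call. Apart from the filter, the cause of these shifts was not tested.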
